A study of Homo sapiens with 12 samples.

Results

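In cells that overexpressed TRMT10A, 3503 distinct crosslinking sites of this protein lay in coding exons, out of 5650 sites in all (62.0%). A member is a separate chromosome, start, end and strand in the authors' list of TRMT10A sites whose annotation begins with the word exon, and 3911 of the 6571 lines of the list met this rule before repeated lines were merged. The 3503 sites fell in 1611 genes, 1608 of them protein-coding, and in 1678 annotated transcripts. The other sites lay in 3' UTRs (788), introns (762), noncoding exons (403) and 5' UTRs (194).

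All samples came from HEK293T, an established line of human embryonic kidney cells, and no other cell type was used. For CLIP-seq, cells with TRMT10A overexpression (3 samples) or FTO overexpression (1 sample) were irradiated with ultraviolet light, the lysate was digested with RNase T1, and RNA held on anti-Flag beads was sequenced. For m6A-seq, cells without a stated overexpression received TRMT10A siRNA or control siRNA, and polyadenylated RNA pulled down with an antibody against m6A was sequenced beside its input, with 2 samples in each of the 4 groups. The CLIP sites therefore describe an overexpressed protein. The list does not separate the TRMT10A libraries, so depth per library is unknown and no spread between replicates could be measured.

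TRMT10A is a methyltransferase of the SPOUT fold that makes 1-methylguanosine at a fixed guanosine of the tRNA body. FTO is a demethylase that acts on N6-methyladenosine, abbreviated m6A, the most common internal modification of mRNA, which is densest near stop codons and in long exons. In CLIP, ultraviolet light joins a protein to the RNA it touches, and overlapping reads from such RNA form a peak.

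Sequence is shown for 8 of the coding exon sites that fall inside a window around the start of a neighbouring or antisense gene. They are shown because they let the size of a site be seen against its surroundings. Each is written 5′ to 3′ on the strand of the transcript, from RefSeq on GRCh38.p14, with 20 bases on either side of the site and the bases of the site in capitals. The windows were chosen by position alone, so the 8 are no sample of the high sites.
RPL27, exon 2 of 4, chr17:42999941-42999990, plus strand: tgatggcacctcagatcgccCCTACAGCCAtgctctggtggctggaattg
HNRNPK, exon 10 of 16, chr9:83972070-83972113, minus strand: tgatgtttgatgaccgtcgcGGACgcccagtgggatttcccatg
HNRNPK, exon 10 of 16, chr9:83971887-83971932, minus strand: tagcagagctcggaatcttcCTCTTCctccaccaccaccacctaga
DYNC1H1, exon 60 of 78, chr14:102039081-102039125, plus strand: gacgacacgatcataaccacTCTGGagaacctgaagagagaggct
JPT1, exon 5 of 5, chr17:75136084-75136124, minus strand: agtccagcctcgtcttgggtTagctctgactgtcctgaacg
PHGDH, exon 1 of 12, chr1:119712031-119712073, plus strand: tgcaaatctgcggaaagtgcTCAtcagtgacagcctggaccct
CCT4, exon 5 of 14, chr2:61878920-61878961, minus strand: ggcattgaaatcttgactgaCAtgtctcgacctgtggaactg
COXFA4, exon 1 of 4, chr7:10940031-10940073, minus strand: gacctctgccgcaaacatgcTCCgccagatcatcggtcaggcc

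The RPL27 site, in a large-subunit ribosomal protein gene, was the highest of these 8, with a height of 39. The height is the value the authors' list gives each site, read here as the depth of reads at the peak. The HNRNPK sites, in the gene of a poly(C)-binding nuclear protein, had heights of 31 and 25 and lie in the same exon. DYNC1H1, the dynein heavy chain, had 24. The CCT4 site, in a chaperonin subunit gene, had a height of 18 and was the only one of the 8 that shared a base with an FTO cluster. None of the 8 lay in a differential m6A peak.

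Sites were short. Their median width was 3 bases, 895 of the 3503 (25.6%) were 1 base wide, and the widest had 22 bases. A site thus marks the summit of a peak and not the whole stretch of RNA under it. The gene of the annotated transcript was also named in the peak for 3472 sites (99.1%). Of the 2957 sites whose gene had a known strand, 2955 lay on that strand. The 2 exceptions, at SOX12 and MROH8, were singled out after their values were seen, and the annotation at those places does not name the RNA that was crosslinked.

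Heights were low and skewed. They ran from 16, the lowest value in the list, to 95, with a median of 20 and quartiles of 17 and 24. At the minimum of 16 there were 551 sites, so that many members lie at the edge of the authors' threshold. A height of at least 30 was reached by 474 coding exon sites (13.5%, 95% Wilson interval 12.4 to 14.7%, counting error only), against 15.9% of all TRMT10A sites. At least 40 was reached by 163, at least 50 by 72 and at least 60 by 32.

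Coding exon sites were higher than 3' UTR sites and lower than intron sites. In 3' UTRs 56 of 788 sites (7.11%) had a height of at least 30, a difference of 6.42 percentage points (odds ratio 2.05, two-sided Fisher's exact test, adjusted p = 4.40e-07). In introns 266 of 762 sites (34.9%) did, a difference of -21.4 percentage points (odds ratio 0.292, two-sided Fisher's exact test, adjusted p = 9.47e-39). P-values are adjusted by Benjamini-Hochberg over 6 tests. Sites of a gene share a transcript and are not independent, so these p-values are too small. Both differences also passed the threshold of 0.05 with 1 site per gene and class, the highest. That choice favours coding exons, which had 3503 sites in 1611 genes, against 788 in 534 for 3' UTRs and 762 in 577 for introns. It therefore cannot settle the 3' UTR difference. Within the 272 genes that had both kinds, the highest coding exon site exceeded the highest 3' UTR site in 160, fell below it in 93 and equalled it in 19, with a median difference of 2. These genes had 795 coding exon and 451 3' UTR sites, and a highest value is taken from more sites in coding exons. Within the 56 genes that had coding exon and intron sites (145 and 72), the highest coding exon site was higher in 27, lower in 26 and equal in 3.

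**Figure D1:**
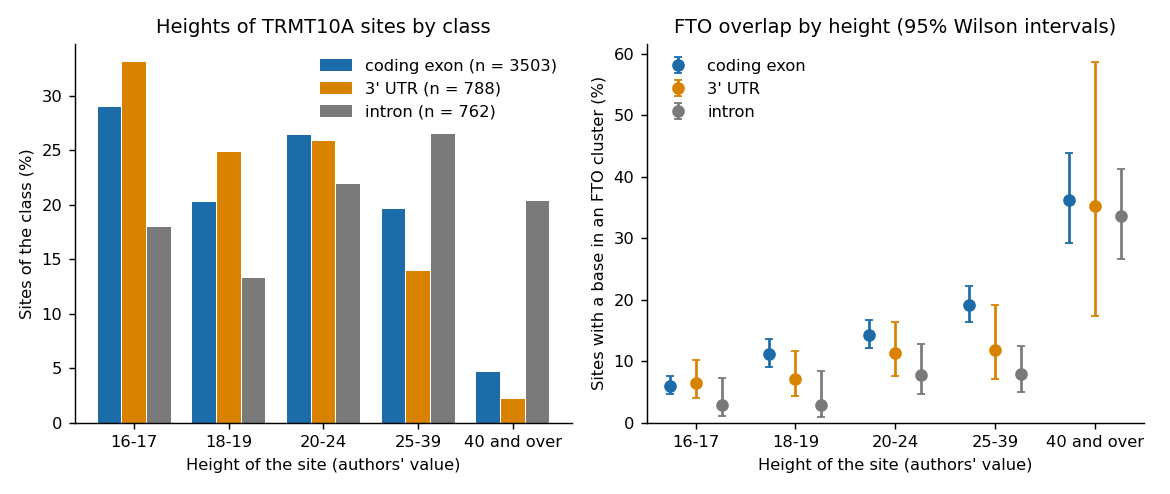
Left, the percentage of sites of each class (bars) by height of the site, for coding exon, 3' UTR and intron sites. Right, the percentage of sites in each height range that share a base with an FTO cluster (points) with 95% Wilson intervals (lines). The FTO share of coding exon sites runs from 5.91% at heights of 16 to 17 to 36.2% at 40 and over.

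The 10 genes with the highest sites included ribosomal, actin, histone and translation factor genes, and TRMT10A itself. RACK1, a scaffold of the small ribosomal subunit, held the highest, with heights of 67 in exon 4, 95 in exon 5, 39 in exon 6 and 26 in exon 7. TRMT10A, the overexpressed gene, had exactly 1 site in each of exons 2 to 8, with heights of 74, 65, 56, 55, 84, 65 and 56 in that order. All 7 exceeded the height of 30, and TRMT10A had no site in a UTR or intron. The median of 65 was the highest of the 166 genes with at least 5 coding exon sites. RNA made from the expression construct and from the cell's own gene cannot be told apart in these sites.

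Both cytoplasmic actin genes were among the 10 genes with the highest sites. ACTB, cytoplasmic beta-actin, had heights of 64 in exon 2, 59 in exon 3, 82 in exon 4, 74 in exon 5, and 32 and 41 in exon 6. ACTG1, its gamma counterpart, had 42, 45, 80, 62 and 37 in exons 2 to 6. Both genes peaked in exon 4 and were lowest in exon 6. These genes are alike in sequence, so reads may have been assigned to either.

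EEF2, the factor that moves the ribosome along the mRNA, had 10 sites, all of them at 36 or above. The first lay in exon 2 (42) and the other 9 filled exons 7 to 15 without a gap, with 55, 46, 63, 76, 53, 57, 46, 36 and 47. The remaining genes among the 10 highest were H3C2 (84) and H1-2 (74), a core and a linker histone gene of a single exon each, RPS23 (81), which encodes a small-subunit protein, PKM (70), the last ATP-making enzyme of glycolysis, and H2AZ1 (69), a histone variant gene. Several histone genes are close copies of each other, and a site in one may come from another.

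**Figure D2:**
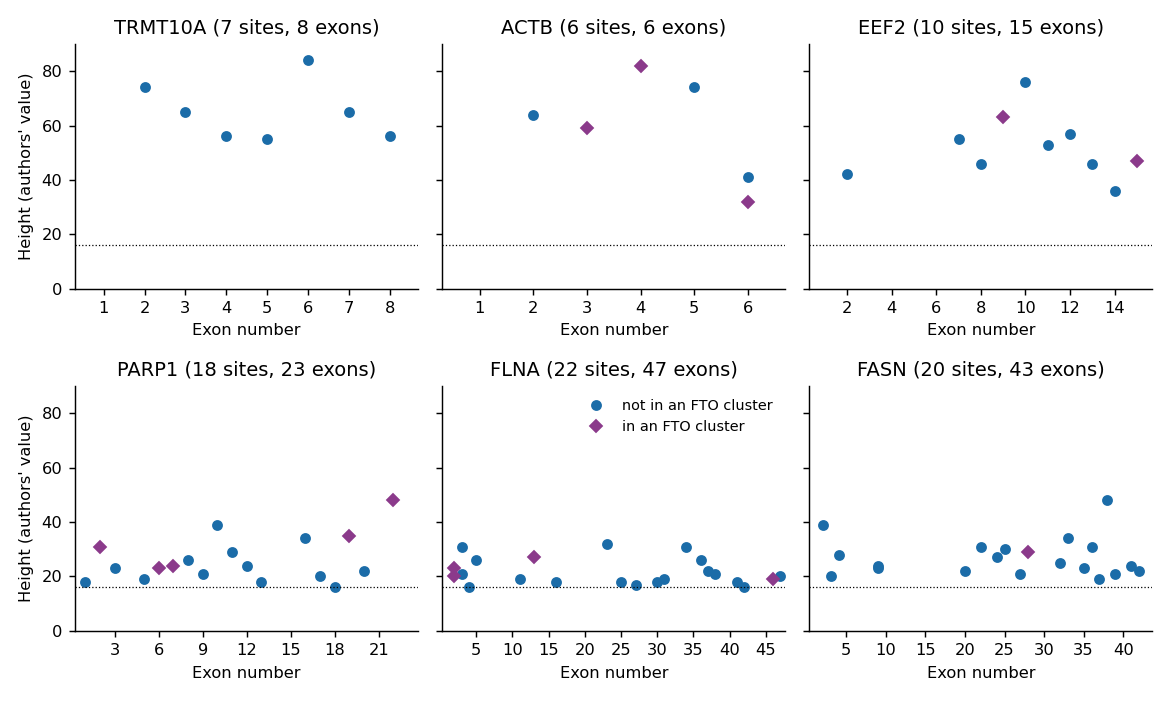
Height of each coding exon site against the number of its exon in 6 genes, with diamonds for sites that share a base with an FTO cluster. The dotted line marks 16, the lowest height in the list. The sites of TRMT10A lie at 55 to 84 and those of FLNA at 16 to 32.

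Most genes had few sites. A single site was found in 897 of 1611 genes (55.7%), 330 genes had 2, 218 had 3 to 4, 139 had 5 to 9 and 27 had at least 10. The 166 genes with at least 5 sites held 1207 of the 3503 sites (34.5%). In 1203 genes all TRMT10A sites were in coding exons.

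The genes with the most sites did not hold the highest ones. FLNA, an actin crosslinker, had 22 sites in 20 of its 47 exons, with a median height of 20 and a highest of 32. FASN, fatty acid synthase, had 20 sites in 19 of 43 exons, with heights of 19 to 48. SBF1, which encodes a protein of the myotubularin family, had 19 sites of at most 35. PARP1, which adds poly(ADP-ribose) at DNA breaks, had 18 sites, 1 in each of 18 of its 23 exons, with heights of 16 to 48. HUWE1, a ubiquitin ligase, had 16 sites of 16 to 35 in 15 of 84 exons. PLS3, an actin-bundling protein, and ACLY, which makes cytosolic acetyl-CoA, had 15 each. SRRM2, a scaffold of nuclear speckles, and PRRC2B had 14 each. UBA1, the enzyme that activates ubiquitin, and SF3B3, a subunit of the U2 particle, had 13 each.

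Part of the spread in height lay between genes. Over the 1207 sites in genes with at least 5, 50.9% of the variance of log2 height lay between genes. The share to be had without any difference between genes was not estimated. The median height of such a gene ranged from 16 in LMNA, a nuclear lamina gene with 5 sites that was named after its value was seen, to 65 in TRMT10A. After TRMT10A came ACTB (61.5) and EEF2 (50). Within a gene the highest site was typically 1.85 times the lowest (median over these genes). The amount of each mRNA in the CLIP cells was not measured, so its part in these heights was not tested.

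Ribosomal protein genes were among the most widely represented groups. The gene lists here were chosen with earlier results of these data known, so their counts are descriptions. Of 50 large-subunit protein genes, 32 had a coding exon site, as had 19 of 34 small-subunit genes. Of all 20056 protein-coding genes, whether expressed in these cells or not, 1608 had a site (8.02%). Ribosomal protein sites were also higher than the rest, with medians of 27 over 67 large-subunit sites and 34 over 48 small-subunit sites, against 20 over all. RPL15 reached 68, RPL18 64 and RPL37A 61 in the large subunit. In the small subunit, besides RACK1 and RPS23, RPS15 reached 63 and RPS6 61.

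Other parts of the translation machinery differed in height. Elongation and termination factors had sites in 6 of 11 genes with a median of 35.5 over 28 sites, 10 of them in EEF2. They were led by EEF2 and by EEF1A1 and EEF1G, which bring aminoacyl-tRNA to the ribosome or recharge its carrier (highest sites 49 and 46). The termination factor genes GSPT1 and ETF1, named after their values were seen, lay lower. GSPT1 had 4 sites of 16 to 34 and ETF1 had 1 of 16. EEF1A2, the tissue-restricted relative of EEF1A1, had 8 sites in 7 of 8 exons with heights of 17 to 42. EEF1A1 and EEF1A2 are alike in sequence. Initiation factors had sites in 23 of 56 genes with a median of 20, and the highest was in EIF5A (49). Aminoacyl-tRNA synthetases, which load tRNAs with amino acids, had sites in 11 of 23 genes. None of their 39 sites reached a height of 30, and the highest was 29 in YARS1.

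Of 41 genes of tRNA modification enzymes 5 had a site (12.2%, against 8.02% of all protein-coding genes), and 7 of the 13 sites were those of TRMT10A. DUS1L, a dihydrouridine synthase, had 3 sites of 16 to 27. TRMT1, which methylates guanosine in tRNA, had 1 of 21, and HSD17B10 and WDR4 had 1 of 18 each. Genes of m6A writers, erasers and readers had sites in 12 of 25, with a median of 21.5. HNRNPA2B1, a nuclear RNA-binding protein, led them with 7 sites up to 47, and ALKBH5, an m6A demethylase, had 6 sites of 21 to 39. FTO had no coding exon site.

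Glycolysis genes stood high. Sites were found in 12 of 17, with a median height of 31 over 57 sites. Lactate dehydrogenase LDHB had 7 sites in 7 of 8 exons and reached 66, GAPDH reached 61 and the enolase gene ENO1 60. Genes of fatty acid and sterol synthesis had 62 sites in 13 of 32 genes at a median of 22, and FASN and ACLY held 35 of the 62. PHGDH, the first enzyme of serine synthesis, had sites in 10 of 12 exons, with heights of 45, 44 and 45 in exons 9 to 11 and at most 31 elsewhere.

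RNA-binding and chaperone genes lay nearer the median. The hnRNP and SR splicing proteins had the most sites of any list, 124 in 30 of 49 genes, with a median of 23, led by HNRNPU (67) and HNRNPA2B1 (47). DEAD- and DEAH-box helicases had 37 sites in 14 of 57 genes at a median of 19, led by DDX17 (47) and DDX5 (42). The HSP70, HSP90 and HSP60 chaperones had 39 sites in 10 of 19 genes at a median of 23. CCT subunits, which fold actin and tubulin, had 26 in 5 of 8 genes at 22.5, and MCM helicase subunits 32 in 6 of 9 genes at 21.5. Proteasome subunits had 31 sites in 18 of 39 genes at a median of 20.

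Histone genes had a site in 20 of 94 (21.3%), solute carriers in 30 of 380 (7.89%) and C2H2 zinc finger genes in 11 of 599 (1.84%), against the 8.02% of all protein-coding genes. The 25 histone sites had a median of 32, and the linker histone gene H1-4 reached 66. Tubulin genes had 17 sites in 5 of 19 genes at a median of 30, led by TUBA1B (58), TUBA1C (50) and TUBA1A (41), which are near-identical in coding sequence.

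**Figure D3:**
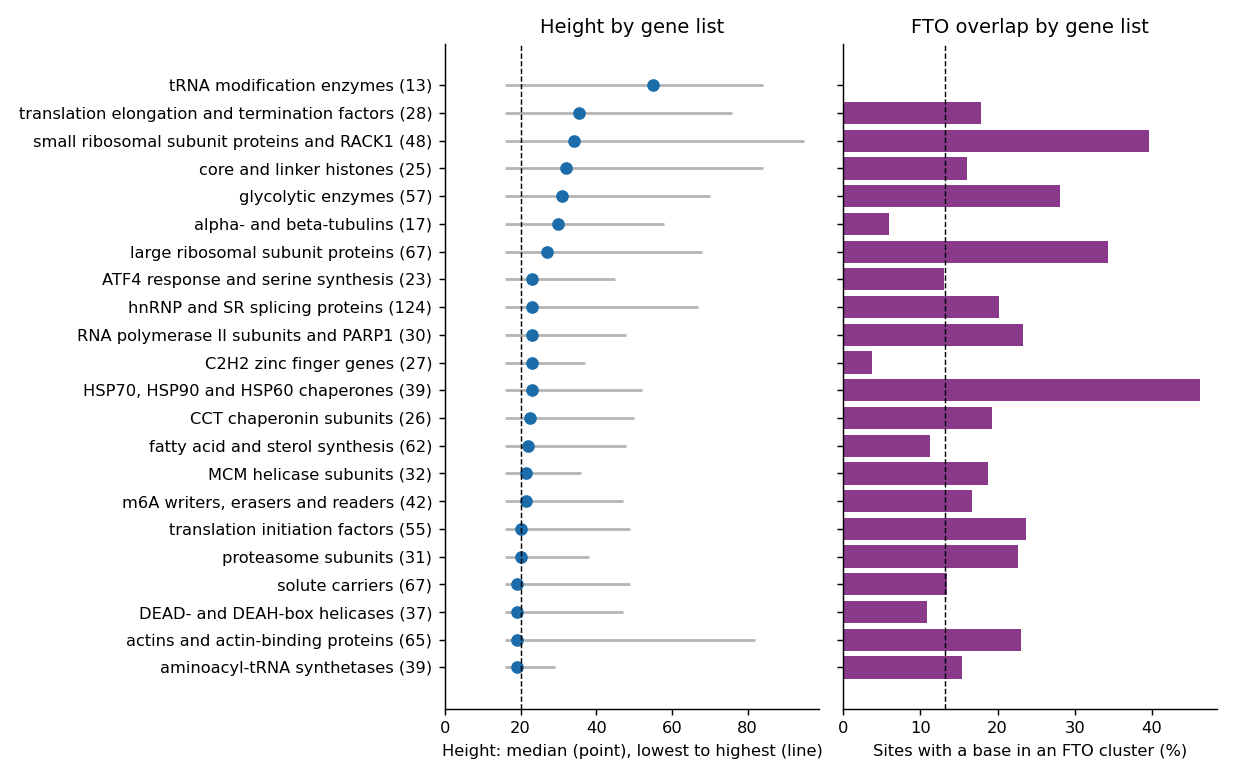
Left, median height (point) with lowest and highest (line) of the coding exon sites in each gene list, with the number of sites in parentheses. Right, the percentage of those sites that share a base with an FTO cluster; dashed lines mark all coding exon sites (20 and 13.2%). Medians run from 19 to 55, and the tRNA modification list at 55 rests on 7 TRMT10A sites.

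Exon numbers count every exon of the annotated transcript, those with only UTR included. The median exon number of a site was 5, the median number of exons in its transcript was 12, and the highest exon number was 86. Internal exons held 2791 sites (79.7%), last exons 371 (10.6%, interval 9.61 to 11.7%), first exons 267 (7.62%, interval 6.79 to 8.55%) and transcripts of a single exon 74 (2.11%). With 1 site per gene, the highest, last exons held 13.8% and first exons 10.8%.

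Sites were spread along the transcripts with fewer at the 5' end. In transcripts of at least 5 exons, which held 3055 sites, exons were divided from 5' to 3' into 5 groups of near-equal number. These groups held 13.1%, 21.3%, 23.2%, 21.5% and 20.8% of the sites. Per annotated exon this was 0.119, 0.171, 0.184, 0.172 and 0.145 sites, so both outer groups, which also hold UTR exons, had fewer sites per exon than the middle ones. The median height was 19 or 20 in each of the 5 groups.

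Heights by exon position overlapped widely. Medians were 22 in single-exon transcripts, 19 in first exons, 19 in internal exons and 20 in last exons. The highest first-exon sites were in PFN1, an actin-monomer binding protein (57), the histone gene H2BC18 (50) and RPL36 (50). Among the highest last-exon sites were those in RPSA2 (57) and TRMT10A (56). RPSA2 resembles the ribosomal protein gene RPSA, and its sites may come from that gene.

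**Figure D4:**
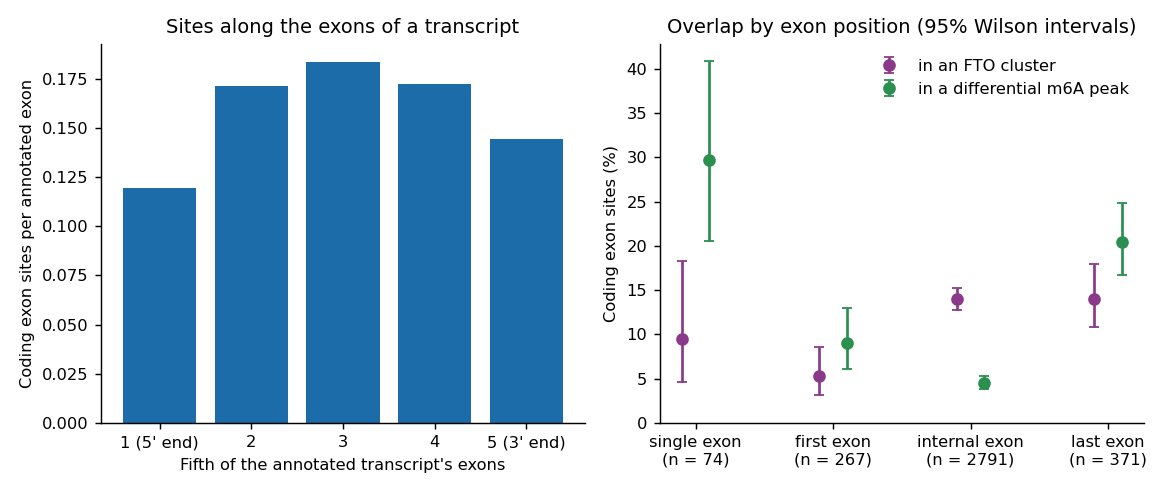
Left, coding exon sites per annotated exon (bars) in 5 groups of exons from 5' to 3', in transcripts with at least 5 exons. Right, the percentage of sites in an FTO cluster or a differential m6A peak by exon position, with 95% Wilson intervals. The m6A share is 29.7% in single exons and 20.5% in last exons against 4.48% in internal exons.

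Coding exon sites of a gene were spread over exons and seldom crowded within one. Of 3308 exons with a site, 3173 (95.9%) had a single one, 135 had at least 2 and 29 at least 3. Of the 714 genes with at least 2 coding exon sites, 657 had them in more than 1 exon and 57 had all of them in 1. There were 792 pairs of adjacent exons that both held a site. Among 126 genes of 1 annotated transcript with sites in at least 5 exons, 51 had sites in 50% or more of all their exons and 11 in 75% or more. These 11 were EEF1A2, LDHB, TRMT10A, PHGDH, ACTB, ACTG1, HSP90AA1, PARP1, USP22, RPLP0 and SLC25A3, a group named after its values were seen.

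Neighbouring sites in an exon kept a distance. The 195 pairs of neighbours were separated by at least 49 bases, with a median gap of 200 and quartiles of 112.5 and 377.5, and 39 pairs were within 100 bases. Another site of the exon lay within 100 bases for 76 of 3503 sites (2.17%, interval 1.74 to 2.71%), within 200 bases for 188 (5.37%) and within 50 bases for 2. Among 3' UTR sites, 4.06% had another 3' UTR site of their gene within 100 bases and 19.2% within 200, and their smallest gap was 45. The measures differ, since neighbours in coding exons had to share an exon and those in 3' UTRs only a gene. Lengths of exons and UTRs were not analysed, so the shares of the 2 classes cannot be compared directly. How closely the authors' peak caller allows summits to lie is not stated in the labels or headers, and its part in this spacing was not tested.

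Runs of sites with gaps of up to 100 bases numbered 37, and 36 of them had 2 sites. The longest was in H3-7, a histone H3 gene with near-identical relatives, whose 4 sites of 17 to 35 lay within 203 bases of exon 1. Among the runs of 2 sites, taken by the number of sites in the gene, PLS3 had a pair of 23 and 25 within 69 bases of exon 8 and PRRC2B a pair of 20 and 31 within 100 bases of exon 14. HSP90AA1, a cytosolic chaperone gene, had a pair of 29 and 33 within 87 bases of exon 7 and another of 19 and 23 within 93 bases of exon 8. The highest pair, named after its values were seen, was that of RPS4X, with 45 and 57 within 87 bases of exon 3.

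A few long exons held many sites. Exon 11 of SRRM2 had 11 sites over 5633 bases with heights of 17 to 39. ZNF358, a zinc finger gene, had 6 sites in exon 2 with heights of 16 to 31. FOXC1, a forkhead transcription factor gene of a single exon, had 5 of 19 to 31, and exon 5 of MATR3, a nuclear matrix protein gene, had 5 of 16 to 30.

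**Figure D5:**
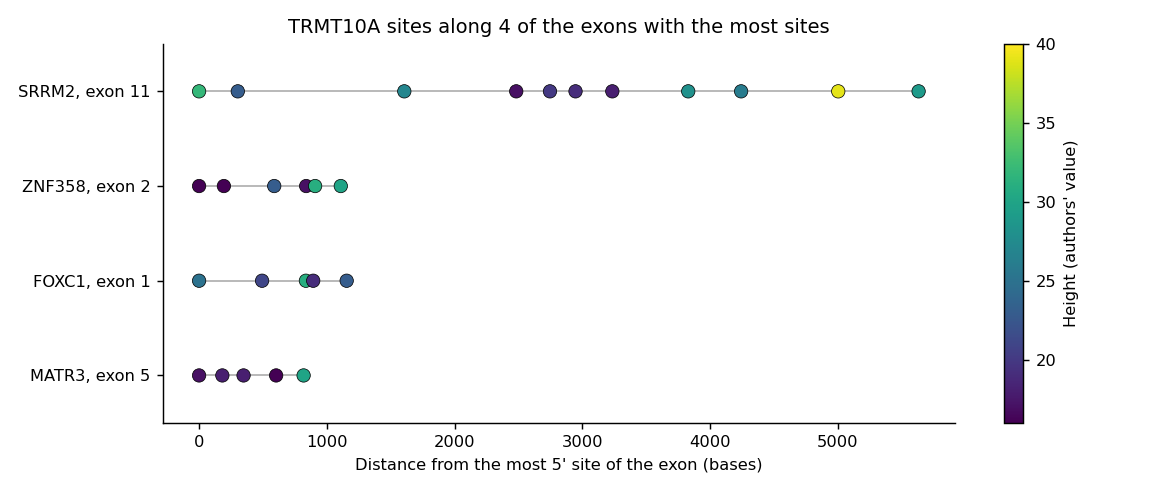
Each point is a coding exon site placed at its distance in bases from the most 5' site of the same exon, coloured by height, for 4 of the exons with the most sites. The 11 sites of SRRM2 extend over 5633 bases, and those of ZNF358, FOXC1 and MATR3 lie closer together.

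Part of the coding exon sites coincided with FTO crosslinking. A base was shared with an FTO cluster on the same strand by 462 of 3503 sites (13.2%, interval 12.1 to 14.4%) in 335 genes, against 12.5% of all TRMT10A sites. In 3' UTRs the share was 73 of 788 (9.26%), lower by 3.92 percentage points (odds ratio 1.49, two-sided Fisher's exact test, adjusted p = 0.00276). When only genes with sites in both classes were compared, the 3' UTR share was 0.23 percentage points below the 12.2% of coding exon sites, and the difference did not pass (two-sided Fisher's exact test, adjusted p = 0.928). In introns the share was 88 of 762 (11.5%), and the difference of 1.64 percentage points did not pass the threshold (two-sided Fisher's exact test, adjusted p = 0.233). This comparison moved with the choice of sites and clusters. With 1 site per gene and class the difference was 3.59 percentage points (two-sided Fisher's exact test, adjusted p = 0.0231). With FTO clusters above the median number of conversion events the intron share was the larger, 8.53% against 5.51% (two-sided Fisher's exact test, adjusted p = 0.00292).

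The FTO share was larger among higher sites. It was 5.91% of 1016 coding exon sites at heights of 16 to 17, 11.1% at 18 to 19, 14.4% at 20 to 24, 19.1% at 25 to 39 and 36.2% of 163 sites at 40 and over. Below 40 the intron share was the lower in each range, at 2.92%, 2.97%, 7.78% and 7.92%, and at 25 to 39 its interval (4.93 to 12.5%) did not reach that of coding exon sites (16.3 to 22.2%). The 3' UTR share in these ranges was 6.51%, 7.14%, 11.3% and 11.8%. It was above the coding exon share at 16 to 17 and below it in the others, with overlapping intervals in each range. At 40 and over the 3' UTR share was 35.3% of 17 sites and the intron share 33.5% of 155, both inside the interval of the coding exon share (29.2 to 43.8%). Sites in an FTO cluster had a median height of 23, and the others 19. The amount of each mRNA was not measured in the FTO cells either. The FTO list came from a single library of cells that overexpressed FTO.

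The highest sites in an FTO cluster were in RACK1, H3C2, ACTB, ACTG1 and H1-2. The RACK1 site of height 95 (chromosome 5 at 181239113, minus strand) lay in a cluster with 28 conversion events, which are base changes at crosslinked positions. The clusters at ACTB exon 4 and ACTG1 exon 4 had 8 and 15 events. Those at H3C2 and H1-2 had 2 and 4. None of the 7 TRMT10A sites, all of them high, lay in an FTO cluster. The FTO library came from cells for which FTO overexpression, but not TRMT10A overexpression, is stated. TRMT10A RNA was not measured in those cells, and its part in this absence was not tested.

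By gene, with names chosen after the counts were seen, CLTC, the clathrin heavy chain gene, had 7 of 12 sites in FTO clusters, SRRM2 had 7 of 14 and HSP90AA1 had 6 of 11. By list, the share was 46.2% of the 39 chaperone sites, 39.6% of the small-subunit and 34.3% of the large-subunit ribosomal protein sites. It was 28.1% for glycolysis, 5.88% for tubulins and 3.70% for zinc finger genes. It was 0% for the 13 sites in genes of tRNA modification enzymes, 7 of which were in TRMT10A. Over all coding exon sites the FTO share was 13.2%, but the share rose with height and the lists differed in height. Median heights were 34 for small-subunit, 27 for large-subunit, 31 for glycolysis, 30 for tubulin and 23 for chaperone sites, against 20 over all. The lists were not compared at equal height. The authors' FTO list placed 436 of the 462 sites in coding sequence by its own annotation, and 8 in a 3' UTR.

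The question put to the m6A table is how many of these sites lie in mRNA stretches whose m6A differed between TRMT10A siRNA and control siRNA. In the authors' deposited table of differential m6A peaks, exon blocks held 247 of the 3503 sites (7.05%, interval 6.25 to 7.95%), against 7.12% of all TRMT10A sites. They lay in 179 genes and 185 peaks. By the blocks of the authors' deposited table the share was larger in 3' UTRs, 94 of 788 (11.9%), a difference of -4.88 percentage points (odds ratio 0.560, two-sided Fisher's exact test, adjusted p = 2.24e-05). Among peaks whose log2 fold change was 1 or more in size in the authors' deposited table, the shares were 1.20% and 1.14% (two-sided Fisher's exact test, adjusted p = 1). No intron site lay in a block (0 of 762), as blocks are exonic. The test against introns therefore says nothing beyond that (two-sided Fisher's exact test, adjusted p = 8.99e-22).

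Sites in m6A peaks were most frequent in single-exon transcripts and last exons. The share was 29.7% in single-exon transcripts (interval 20.5 to 40.9%), 20.5% in last exons (16.7 to 24.9%), 8.99% in first exons (6.11 to 13.0%) and 4.48% in internal exons (3.77 to 5.31%). Of the 118 sites in exons with at least 3 sites, 49 (41.5%) lay in an m6A block, against 7.05% of all coding exon sites. Sites of 1 exon can share a peak, as the 4 of ZNF503 did, so the 49 are not separate overlaps. FTO overlap had another order, with 14.0% in last and 13.9% in internal exons but 5.24% in first exons (3.15 to 8.61%). These intervals treat sites as independent, and no test was made between exon positions. Heights did not separate the sites, with a median of 20 inside m6A blocks.

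Signs in the authors' deposited table are given as listed, since its headers leave the numerator unstated. Of the 185 peaks with a coding exon site, 152 were positive and 33 negative in the authors' deposited table, a positive share of 82.2% (interval 76.0 to 87.0%) beside 66.5% of all 2023 peaks. A few of the 185 listed peaks cover the same or nearly the same stretch under another name, as at PIGY and CTNND1. The interval counts each of them separately. The median log2 fold change of the 185 peaks in the authors' deposited table was 0.48. The TRMT10A peak, with 1.48 in the authors' deposited table, held all 7 TRMT10A sites, more than any other peak. TRMT10A is the target of the siRNA itself.

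The most positive of these peaks in the authors' deposited table were those of CD320, a receptor for the vitamin B12 carrier (1.70), SCAND1 and TRMT10A (1.48 each), and HNRNPU and IRGQ (1.46 each). The HNRNPU site in that block lies in exon 1 and has a height of 37, while the gene's highest site, of 67, lies outside. The most negative values that the authors' deposited table gave were those of REEP5 (-0.70), GMNN, an inhibitor of replication licensing (-0.61), the RNA-editing deaminase ADAR (-0.57), the chromatin remodeller CHD4 (-0.56) and DNTTIP2 (-0.55). After TRMT10A, the highest sites inside m6A blocks were in HSP90AB1 (52), HSP90AA1 (51), EEF2 (47) and TUBB4B (41), with log2 fold changes of 0.10, -0.31, 0.37 and 0.38 in the authors' deposited table.

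Of the 27 coding exon sites in zinc finger genes 14 lay in an m6A block, against 7.05% of all coding exon sites. All 14 came from 4 of the 11 genes, with 1 peak each, among them 5 of 5 in ZNF768 (named after its count was seen), 4 of 4 in ZNF503 and 2 of 6 in ZNF358. The peaks at these genes had log2 fold changes of 0.61, 0.73 and 1.38 in the authors' deposited table. In these genes the sites in a block lay in exon 2 of 2, a last exon. Over all genes the block share was 20.5% in last exons and 41.5% in exons with at least 3 sites. The gene lists were not compared at equal exon position. Ribosomal protein genes had 1 of 115 coding exon sites in a block and 42 in an FTO cluster. Over all coding exon sites these shares were 7.05% and 13.2%, and the FTO share rose with height. Other lists also had no site in a block. They were glycolysis (57 sites), fatty acid and sterol synthesis (62), aminoacyl-tRNA synthetases (39), MCM subunits (32) and CCT subunits (26). Sites that lay both in an FTO cluster and in an m6A block numbered 30, in 29 genes.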

How the data were processed

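The 3 deposited tables used hold TRMT10A CLIP sites, FTO CLIP clusters and differential m6A peaks. Coordinates are in hg38, and DESeq2 is named without a role, per the submitters' processing notes. The TRMT10A list holds a peak height per site, a signal that the authors computed over pooled, unique tags, annotated with HOMER's annotatePeaks.pl, per the file headers. The deposited FTO list gives a count of conversion events per cluster. The deposited m6A table gives a log2 fold change and, as a score, the log10 of an adjusted p for each peak.

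Repeated lines were merged by chromosome, start, end and strand. Gene names and strands came from RefSeq (GRCh38.p14). Overlaps were strand-specific and needed 1 shared base. Shares have 95% Wilson intervals. The 6 comparisons of shares used two-sided Fisher's exact tests (scipy 1.17.1) with Benjamini-Hochberg adjustment. The tests were checked on simulated data with independent sites, which does not cover sites that share a gene. All else is description.

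Named genes are TRMT10A, FTO, the 10 genes with the highest site and the 10 with most sites, the 5 with most sites in 1 exon, the 5 longest runs, the 5 with the highest site in an FTO cluster or m6A peak, the 5 m6A peaks with the largest value of each sign, the leading members of each list, and the 3 highest first- and last-exon sites. Members and all 22 gene lists were chosen with earlier results of these data known. Depth is unknown, so intervals cover counting error only. Some genes and 1 sequence that these rules select are not reported here.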

Additional observations from a re-analysis of the deposited data

How the results depend on the processing

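Of 57 alternative values, 46 kept their direction and side of the threshold or stayed within the interval, 3 newly passed, 1 no longer passed, 2 turned and 5 moved. The median height and the gene count have no interval, and an unchanged median or a similar count was taken as kept. The 46 include all 7 for the m6A share against intron sites, a comparison largely fixed because blocks are exonic. They also include the settings without the 7 TRMT10A sites, which are too few of 3503 to move most values. For the FTO share of coding exon against intron sites, the difference of 1.64 points became 8.26 when a gap of 100 bases was allowed, 3.59 with 1 site per gene and class, 8.96 with only genes that have both classes, and -3.02 with only clusters above the median events. Against 3' UTR sites the FTO difference was 0.23 points with only genes that have both classes. The m6A difference against 3' UTR sites was 0.057 points with only peaks whose log2 fold change was 1 or more in size. The cause was not tested in these cases. Height differences passed in all 6 alternatives, at 2.50 to 8.36 points against 3' UTR sites and -22.6 to -9.77 against intron sites. The last-exon share was 9.35% in transcripts with at least 3 exons and 13.8% with 1 site per gene, and the first-exon share 10.8% with 1 site per gene. The share with a neighbour was 0.057% at 50 bases and 5.37% at 200 bases, since a wider distance counts more pairs. Assignment to the gene of the annotated transcript gave 1604 genes in place of 1611. The comparisons limited to genes with both classes, the FTO share without TRMT10A and the height share in protein-coding genes were added after seeing the data.

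No paired analysis was possible because the lists hold no values per replicate, and for the same reason no replicate was left out. The sites come from an overexpressed protein, libraries were pooled, mRNA levels were not measured, and sites just under a height of 16 are not listed. Genes with near-identical copies, such as histones, tubulins and actins, hold uncertain sites.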
